A study of Mus musculus with 12 samples.

Results

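No gene passed the test for a different response to injurious ventilation in mouse lungs without non-muscle myosin light chain kinase, at 3 arrays per group. The quantity described is the difference of responses: the change from spontaneous breathing (SB) to ventilator-induced lung injury (VILI) in nmMLCK-/- mice, minus the same change in wild-type mice. It was computed for 12309 genes, out of 18193 genes that a probe set with a single gene symbol names on the array, and it uses all 12 arrays of the study. A value above 0 means that the knockout response was the higher one, and a value below 0 that it was the lower one. It can arise from a gap between the genotypes under SB, under VILI or under both, so the genotype differences are given beside it.

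Total lung RNA was hybridised to Affymetrix whole-genome mouse expression arrays, 1 array per sample. The 4 groups were wild type under SB, wild type under VILI, nmMLCK-/- under SB and nmMLCK-/- under VILI, with 3 arrays in each. All mice were male C57BL/6 animals aged 8 to 12 weeks. VILI lasted 4 h, with the ventilator set to 65 breaths each minute, no positive end-expiratory pressure (0 cm H2O) and a tidal volume given as 40 ml/kg for the samples and 30 ml/kg for the series. There was no group ventilated at a low tidal volume, so an effect of the tidal volume cannot be told apart from the rest of the procedure. The labels name no cell-specific deletion and do not say whether the wild-type mice were littermates.

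Myosin light chain kinase phosphorylates the regulatory light chain of myosin and so starts actomyosin contraction. The long, non-muscle isoform is encoded by Mylk together with the shorter smooth muscle isoform. In endothelial cells it acts at the cortex and at cell junctions, where contraction opens gaps between cells, and in neutrophils it takes part in adhesion and movement. Mice without it have been used to ask how far endothelial contraction contributes to leak and inflammation in injured lungs. The comparison of responses asks that question for transcripts.

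The arrays were alike, with correlations of 0.981 to 0.998 across all 45037 probe sets, which are not independent replicates. The tissue carried its defining transcripts, with Sftpc of alveolar type 2 cells at a log2 signal of 15.70 to 15.81, Ager of alveolar type 1 cells at 15.17 to 15.40 and Scgb1a1 of club cells at 16.15 to 16.22. These lie near the top of the scale of the arrays. By the brightest of 3 probe sets, Mylk was read at 13.05, 12.98 and 12.98 in wild-type SB, 12.95, 12.85 and 12.77 in wild-type VILI, 12.83, 12.80 and 12.71 in knockout SB and 12.68, 12.77 and 12.71 in knockout VILI. Its difference of responses was 0.09 ± 0.11 (SE, n = 3 arrays per group) by this probe set, and 0.54 ± 0.36 and 0.22 ± 0.67 by the other 2. The files do not say which isoform a probe set reads, so Mylk does not check the genotype labels. Among the SB arrays, replicate 3 of wild type and replicate 2 of the knockout stood apart, with glucocorticoid response lists at -0.91 and -1.15 relative to each gene's mean, against 0.01 to 0.27 in the remaining 4. Wild-type SB replicate 3 also carried neutrophil transcripts at the level of the ventilated lungs. Some of the values described below are given without these arrays as well. Values that carry no such statement can also depend on them.

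Over the whole array the test gave no call. Of the 12309 genes, 0 had a limma adjusted p under 0.05 and 0 under 0.1, and the smallest adjusted p was 0.244, for Tbrg3. At an unadjusted limma p under 0.05 there were 619 genes, or 5.03% of those tested, 299 of them with the knockout response higher (2.43%) and 320 with it lower (2.6%). That share is close to the 5% that the threshold sets. A p that misses the threshold does not show equal responses, and the intervals say how far the data limit a difference. The 95% interval reached 0.46 log2 to either side of the estimate at the median gene. For 9712 genes (78.9%) the whole interval lay within a 2-fold difference in either direction, and for the other 2597 it reached beyond. The estimate itself exceeded 2-fold in 151 genes (1.23%).

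The main responses ran alongside each other. Ventilation moved 1892 genes in wild type (15.4% of those tested) and 2554 in the knockout (20.7%) at a limma adjusted p under 0.05. The 1245 genes called in both genotypes are 65.8% of the wild-type calls and 48.7% of the knockout calls, and all 1245 went the same way. Of the 647 genes called in wild type alone, 622 had the same sign in the knockout, as did 1244 of the 1309 called in the knockout alone. Across all genes tested the responses correlated at a Pearson r of 0.83 and a Spearman rho of 0.79, a description over genes that share arrays and normalization. The difference in the number of calls was not itself tested.

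The sizes of the responses can be set beside each other over the 4520 genes (36.7%) called for the mean ventilation effect of both genotypes, a choice that does not use the difference between them. Their median response was 0.48 log2 in wild type and 0.53 in the knockout. The knockout response was the larger one in 2579 of them and the wild-type response in 1941, and the median of the knockout minus wild-type size was 0.04. Of the 4520 genes, 323 (7.15%) had an unadjusted limma p under 0.05 for the difference of responses, and for 3476 (76.9%) the interval lay within 2-fold. The small excess of the knockout moved with single arrays. The median signed difference was -0.02 when wild-type SB replicate 2 was left out, -0.01 for knockout SB replicate 2 and 0.12 for knockout SB replicate 1. With both of the SB arrays that stood apart left out, the knockout was the larger in 50.6% of 4282 genes.

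**Figure D1:**
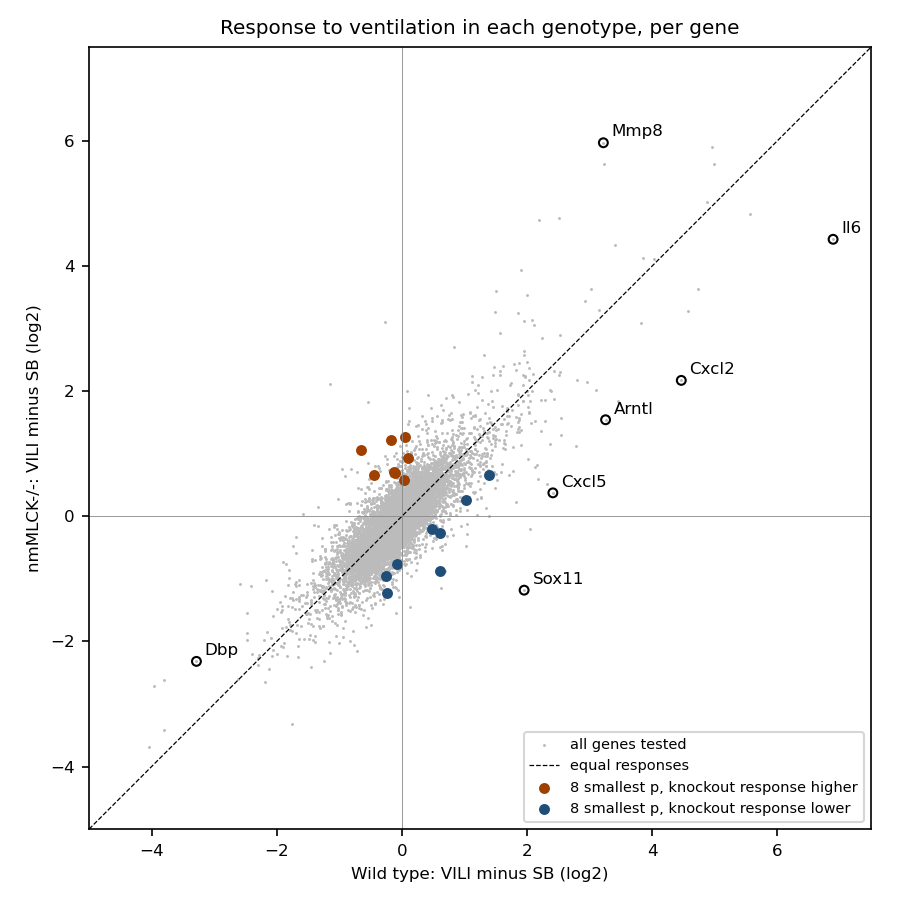
Response to ventilation (VILI minus SB, log2) in wild type on the x axis and in nmMLCK-/- on the y axis, 1 grey point for each of the 12309 genes tested, with the line of equal responses dashed. The genes with the 8 smallest p in each direction lie close to the origin on either side of that line, and Il6, Cxcl2, Cxcl5, Arntl, Mmp8, Dbp and Sox11, circled, lie far from the origin.

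The make-up of the difference is described for the genes with an unadjusted limma p under 0.05. Among the 619 genes, the genotypes differed more under VILI in 413 and more under SB in 206, and in 539 the knockout was higher in one condition and lower in the other. The responses had opposite signs in 278, the knockout response was the larger of 2 same-sign responses in 209, and the wild-type response was the larger in 132. Choosing genes by a small p for the difference of responses itself favours opposite signs. These counts therefore only describe the genes chosen, and the shares over all genes are not given here. The values below are log2 signals, and none of these genes passed the adjusted test.

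Tbrg3, named for its regulation by transforming growth factor beta, read 4.84, 4.63 and 4.85 in wild-type SB, 4.83, 4.91 and 4.85 in wild-type VILI, 4.84, 4.82 and 4.84 in knockout SB and 5.71, 5.76 and 5.81 in knockout VILI. The 3 ventilated knockout lungs were above all 9 others, which overlapped. The difference of responses was 0.84 ± 0.11 (SE, n = 3 arrays per group, limma adjusted p = 0.244), from a response of 0.09 in wild type and 0.93 in the knockout. It passed at an adjusted p of 0.0473 with no filter on dim probe sets, and its estimates over the fits that left out 1 array ran from 0.80 to 0.91. Under VILI alone the genotypes differed by 0.90 (limma adjusted p = 0.00347).

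A pair of genes on that list encode a receptor and its ligand. Pdpn encodes podoplanin, a glycoprotein of alveolar type 1 and lymphatic endothelial cells, and Clec1b encodes CLEC-2, the platelet receptor that podoplanin activates. Pdpn read 12.81, 12.85 and 12.81 in wild-type SB, 12.73, 12.81 and 12.57 in wild-type VILI, 12.64, 12.42 and 12.70 in knockout SB and 13.31, 13.25 and 13.25 in knockout VILI. The knockout lay below wild type under SB and above it under VILI, with no overlap in either condition. Its difference of responses was 0.80 ± 0.13 (limma adjusted p = 0.345), and the knockout response of 0.68 passed on its own (adjusted p = 0.00175) where the wild-type response was -0.12.

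Clec1b read 8.72, 8.84 and 8.92 in wild-type SB, 8.60, 8.49 and 8.07 in wild-type VILI, 7.78, 7.53 and 7.80 in knockout SB and 8.34, 8.34 and 8.43 in knockout VILI. Here the gap was under SB, where the knockout was lower by -1.12 (limma adjusted p = 0.0161), while the ventilated groups overlapped. The difference of responses was 1.10 ± 0.19 (adjusted p = 0.345). Gp1bb had the same layout. This gene, which encodes a subunit of the platelet receptor for von Willebrand factor, read 6.46, 6.80 and 7.30 in wild-type SB, 6.28, 6.15 and 6.17 in wild-type VILI, 5.28, 4.63 and 5.33 in knockout SB and 6.01, 6.22 and 6.17 in knockout VILI. Its difference of responses was 1.71 ± 0.31 (adjusted p = 0.345), with a genotype gap of -1.77 under SB (adjusted p = 0.019) and of -0.07 under VILI. With both of the SB arrays that stood apart left out, it passed at 1.26 and an adjusted p of 0.0464.

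Among the 7 tested members of the platelet and erythroid list, all 7 differences of responses were above 0, where 48.2% of all genes were, and 2 had an unadjusted p under 0.05 (Gp1bb and Ppbp). Of all genes tested, 2.43% had that p with a higher knockout response. The list's median was 1.02, against -0.01 over all genes, and 0.70 without the same pair of arrays. The list mixes platelet and erythroid genes, and its highest difference, 1.72, belongs to a member not named here. The median is therefore not a value for platelet genes alone. Ppbp, which encodes a platelet chemokine precursor, read 11.08, 11.28 and 11.63 in wild-type SB, 11.09, 10.82 and 10.61 in wild-type VILI, 10.10, 9.42 and 10.16 in knockout SB and 10.39, 10.42 and 10.46 in knockout VILI, so the knockout lay below wild type in both conditions. Its difference of responses was 1.02 ± 0.29 (limma adjusted p = 0.867), and 0.64 with both of the SB arrays that stood apart left out. The platelet chemokine Pf4 had 0.19 ± 0.24, or 0.07 with wild-type SB replicate 3 left out, and the integrin subunit Itga2b 0.29 ± 0.18. The platelet gene Gp9 had 0.54, or 0.28 with wild-type SB replicate 1 left out. In bulk tissue, fewer cells of a type and less RNA per cell cannot be told apart, and the part of retained blood in these values was not tested.

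The other genes with higher knockout responses and the smallest p were Airn, Cd177, Cc2d1b and Ammecr1, with limma adjusted p of 0.345 each. Cd177, a neutrophil surface glycoprotein, read 5.22, 5.30 and 5.61 in wild-type SB, 5.16, 5.23 and 5.25 in wild-type VILI, 4.29, 4.36 and 4.69 in knockout SB and 5.81, 5.24 and 5.97 in knockout VILI, a difference of responses of 1.39 ± 0.26. The lowest group was knockout SB, and the ventilated groups overlapped. Ammecr1 read 4.35, 4.32 and 4.40 in wild-type SB, 4.34, 4.44 and 4.41 in wild-type VILI, 4.45, 3.96 and 4.41 in knockout SB and 5.18, 5.79 and 5.67 in knockout VILI (1.23 ± 0.23). Only the ventilated knockout lungs stood apart for this gene. Cc2d1b had a difference of responses of 0.54 ± 0.10. Airn, a non-coding RNA that overlaps the imprinted gene Igf2r on the other strand, had 0.82 ± 0.15 by the probe set used, while its other probe sets gave 1.67, 0.05, -0.04 and -0.36, so the gene has no single value.

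On the lower side, Ikzf4, a zinc finger transcription factor of the Ikaros family, read 3.85, 3.84 and 3.79 in wild-type SB, 5.20, 5.26 and 5.21 in wild-type VILI, 3.67, 3.99 and 3.82 in knockout SB and 4.44, 4.45 and 4.57 in knockout VILI. It rose in both genotypes, by 1.40 in wild type (limma adjusted p = 4.09e-05) and by 0.66 in the knockout (adjusted p = 0.00169), and the difference of responses was -0.74 ± 0.13 (adjusted p = 0.345). Under VILI the genotype gap of -0.74 passed (adjusted p = 0.023). The other probe set of Ikzf4 past the filter gave a difference of -0.36. Cers3, a ceramide synthase, read 3.43, 3.63 and 3.69 in wild-type SB, 4.58, 4.71 and 4.51 in wild-type VILI, 3.67, 3.60 and 3.61 in knockout SB and 4.06, 3.76 and 3.84 in knockout VILI. Its wild-type rise of 1.02 passed, its knockout response was 0.25, and the difference was -0.76 ± 0.15.

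Spin4, of the spindlin family of histone readers, read 7.62, 7.49 and 7.77 in wild-type SB, 8.30, 8.17 and 8.25 in wild-type VILI, 8.00, 8.11 and 7.93 in knockout SB and 7.86, 7.75 and 7.61 in knockout VILI, a difference of -0.89 ± 0.14 (limma adjusted p = 0.345). The genotypes changed places between conditions without overlap in either. Ear3, an eosinophil-associated ribonuclease, had a difference of -1.49 ± 0.27, with an opposite sign in each genotype (0.61 in wild type, -0.87 in the knockout). Its family consists of near-identical copies that this probe set may not separate. Zinc finger genes made up 3 of the remaining 4, Zfp472 at -0.69 ± 0.13, Zfp958 at -0.71 ± 0.14 and Zfp2 at -0.68 ± 0.14. Fbxo30, a substrate adaptor of a ubiquitin ligase, had -0.98 ± 0.20, and its other probe sets had -0.53, -0.25 and -1.50.

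**Figure D2:**
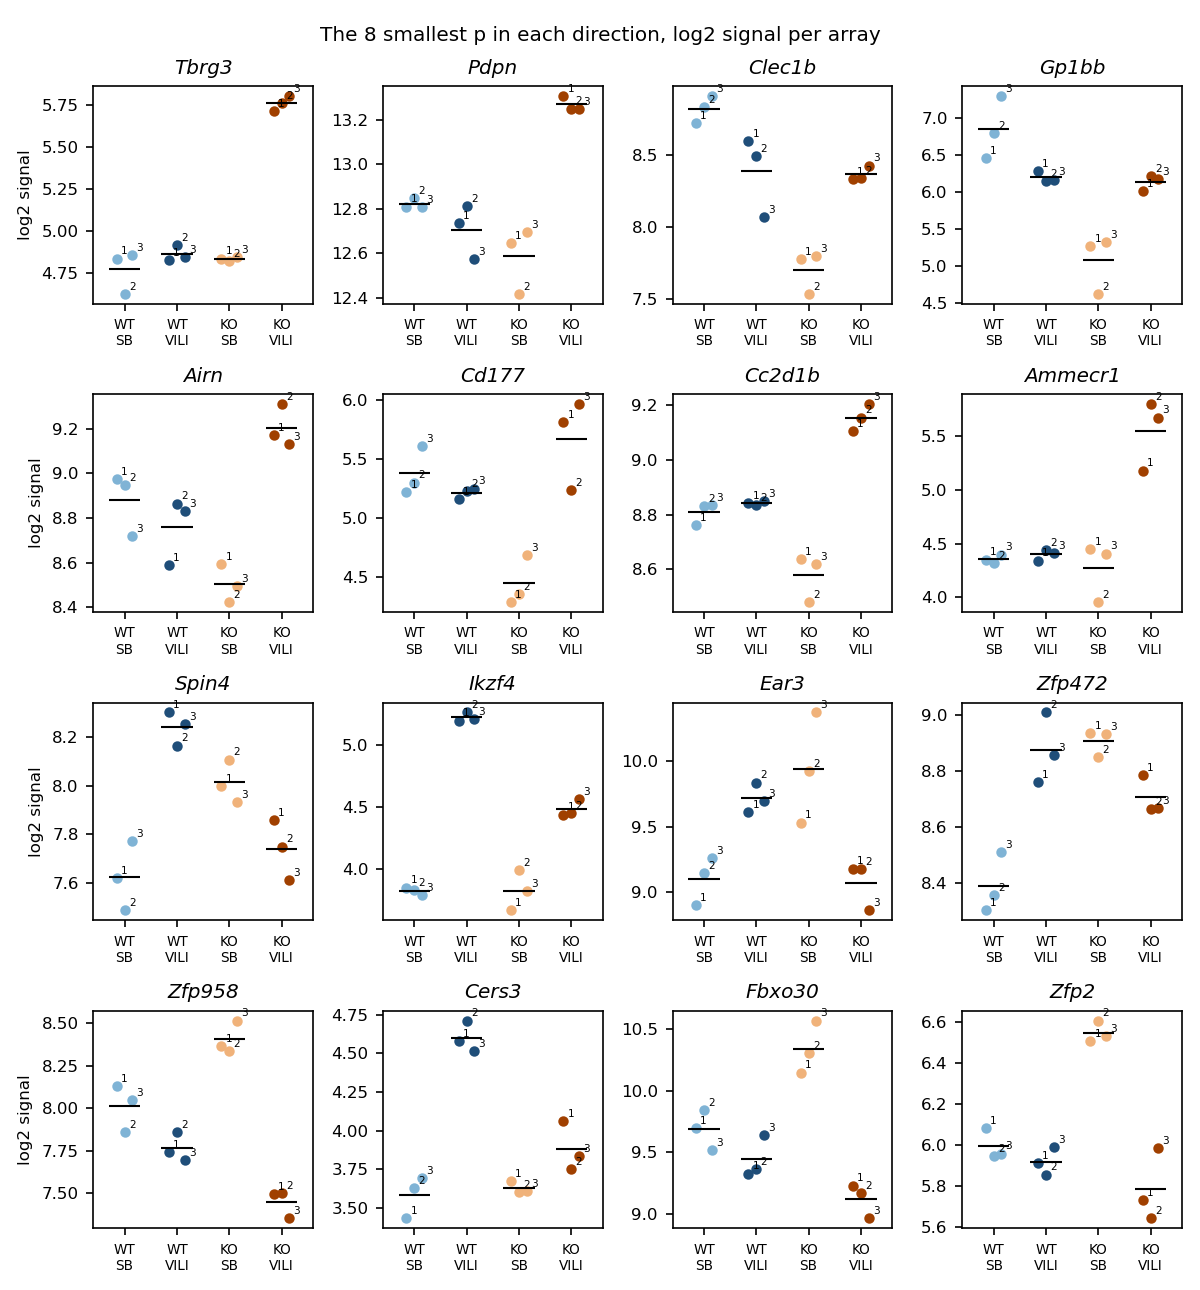
Log2 signal of the 16 genes with the smallest p for the difference of responses, the upper 2 rows with the knockout response higher and the lower 2 with it lower, 1 numbered point per array and a bar at each group mean (WT wild type, KO nmMLCK-/-). Tbrg3 and Ammecr1 are set apart by the ventilated knockout lungs, and Clec1b and Gp1bb by the knockout lungs under SB.

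Cytokines and chemokines are the most studied transcripts of overventilated lungs. Of 19 such genes, 11 were tested, 0 had an unadjusted limma p under 0.05 with a higher knockout response and 2 with a lower one, and the median difference was -0.07. The shares over all genes tested, for this list and those below, were 2.43% higher and 2.6% lower. Il6, which drives the acute phase response, read 2.08, 2.06 and 2.13 in wild-type SB, 10.46, 9.05 and 7.44 in wild-type VILI, 2.07, 2.09 and 2.10 in knockout SB and 8.97, 8.32 and 2.25 in knockout VILI. Knockout VILI replicate 3 thus read no higher than 2.25, near the SB level, and the other 2 ventilated knockout lungs read within the wild-type range. The difference of responses was -2.47 ± 2.03 (95% interval -6.97 to 2.04, limma adjusted p = 0.982), and -0.34 without knockout VILI replicate 3. The SB means of Il6 and Cxcl2 lie under the filter level of 3.06 log2, so the size of their responses is not measured.

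Several chemokines attract neutrophils through the receptor CXCR2. Cxcl5, made mainly by epithelium, read 3.24, 3.41 and 3.17 in wild-type SB, 7.18, 5.25 and 4.63 in wild-type VILI, 3.22, 3.28 and 3.30 in knockout SB and 3.43, 3.94 and 3.54 in knockout VILI. All 3 ventilated wild-type lungs were above all 3 ventilated knockout lungs. Its wild-type rise of 2.41 passed (limma adjusted p = 0.0108), its knockout response was 0.37 (adjusted p = 0.617), and the difference was -2.04 ± 0.70 (95% interval -3.58 to -0.50, adjusted p = 0.902). It was -1.29 without wild-type VILI replicate 1.

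Cxcl2 read 2.44, 2.37 and 2.47 in wild-type SB, 7.13, 6.28 and 7.28 in wild-type VILI, 2.68, 2.46 and 2.42 in knockout SB and 5.15, 2.75 and 6.17 in knockout VILI, again with no overlap between the ventilated groups. The difference was -2.29 ± 0.94 (95% interval -4.37 to -0.21, limma adjusted p = 0.971), and both responses passed on their own, at adjusted p of 0.00252 in wild type and 0.0426 in the knockout. The difference was -1.32 with knockout VILI replicate 2 left out. Cxcl1 differed by -0.07 ± 0.80 (95% interval -1.83 to 1.69), with rises of 1.85 in wild type and 1.79 in the knockout, and its sign changed with the arrays used. The other probe set of Cxcl1 gave -0.78, with SB readings of 2.67 to 3.04, under the filter level. Cxcl3 had -0.13 ± 0.34.

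Il1b, a cytokine of activated myeloid cells, read 7.34, 7.23 and 10.53 in wild-type SB, 10.10, 10.22 and 11.03 in wild-type VILI, 7.09, 7.27 and 7.39 in knockout SB and 10.50, 9.80 and 10.86 in knockout VILI. The single high SB value is that of wild-type replicate 3. The difference was 1.05 ± 1.03 with that array and -0.03 without it. Among the growth factors, Csf1 had 0.82 ± 0.39, or 0.52 without the same array, and its other probe sets gave 0.21 to 1.27. Csf2 had -0.41 ± 0.33, or -0.10 with knockout SB replicate 2 left out. Cxcl10 had 0.36 ± 0.27, Lif 0.04 ± 0.24 and Il1a 0.01 ± 0.28.

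Cytokine signalling and response genes gave few small p-values. In the list of IL-6 family receptors, STAT3 and acute phase genes, 0 of 17 members had an unadjusted p under 0.05 in either direction. Of the 17 differences, 15 were above 0, where 48.2% of all genes were, and the median was 0.23. Relative to each gene's mean, the list stood lowest in knockout SB replicate 2 (-0.91) and wild-type SB replicate 3 (-0.58). Its member Lrg1 had 0.37, which was 0.12 without the former array and 0.65 without the latter. In the NF-kB and Toll-like receptor list 2 of 16 were lower at an unadjusted p under 0.05 and 0 higher, with a median of -0.03. These were Cd14, the co-receptor for lipopolysaccharide, and Il1rn, the interleukin 1 receptor antagonist. Cd14 read 9.62, 9.53 and 9.90 in wild-type SB, 10.74, 10.35 and 10.43 in wild-type VILI, 9.59, 9.73 and 9.71 in knockout SB and 9.91, 9.66 and 9.98 in knockout VILI. It rose in wild type by 0.82 (limma adjusted p = 0.00435), the knockout response was 0.17 (adjusted p = 0.379), and the difference was -0.65 ± 0.19 (adjusted p = 0.867). Il1rn had -1.06 ± 0.40. The median over the interferon-stimulated list was 0.09 (0 of 16 in either direction), and over the immediate early genes 0.21 (0 of 20).

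Neutrophil markers had the largest median difference of the 37 lists, and it moved with 1 array. Of 13 tested members, 4 had a higher knockout response at an unadjusted limma p under 0.05 and 0 a lower one, with a median difference of 1.38 from median responses of 2.19 in wild type and 3.60 in the knockout. Of all genes tested, 2.43% were higher and 2.6% lower by that p. Relative to each gene's mean, the list stood at -1.79, -1.27 and 1.13 in wild-type SB, 0.96, 0.86 and 1.80 in wild-type VILI, -2.03, -2.37 and -2.01 in knockout SB and 1.62, 0.97 and 1.92 in knockout VILI. The ventilated groups overlapped, and among SB lungs wild-type replicate 3 lay within the range of the ventilated ones. S100a9, a subunit of the calprotectin complex abundant in neutrophils, read 10.99, 11.36 and 13.96 in wild-type SB and 10.30, 10.27 and 10.49 in knockout SB. Its difference of responses was 2.09 ± 0.87 (adjusted p = 0.971), and 1.16 with wild-type SB replicate 3 left out. Mmp8, the neutrophil collagenase, had 2.75 ± 1.12 and S100a8 1.78 ± 0.77, the latter at 0.98 without the same array. With both of the SB arrays that stood apart left out, Mmp8 stood at 1.43. Leaving out that array brought the list's median to 0.61, and leaving out knockout SB replicate 2 as well brought it to 0.39. It was 0.08 with array weights estimated in limma, an estimation that stopped before it converged.

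Alveolar macrophage markers pointed the other way at a smaller size. Of 13 tested, 4 had a lower knockout response at an unadjusted p under 0.05 and 0 a higher one, with a median difference of -0.19. Of all genes tested, 2.6% were lower and 2.43% higher by that p. Without wild-type SB replicate 3 the counts were again 4 and 0. Cd68, a lysosomal glycoprotein of macrophages, read 8.46, 8.39 and 9.03 in wild-type SB, 9.38, 9.59 and 9.26 in wild-type VILI, 8.86, 8.93 and 9.25 in knockout SB and 9.24, 8.71 and 8.46 in knockout VILI, a difference of -0.99 ± 0.31 (limma adjusted p = 0.867). Siglecf, a sialic acid-binding lectin of alveolar macrophages and eosinophils, had -0.91 ± 0.35, Fabp1 -0.99 ± 0.33 and the scavenger receptor Marco -1.79 ± 0.76. Siglecf stood at -0.57 with knockout SB replicate 3 left out. The Marco value came with a wide spread under SB, where wild type read 3.94, 5.28 and 6.25.

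**Figure D3:**
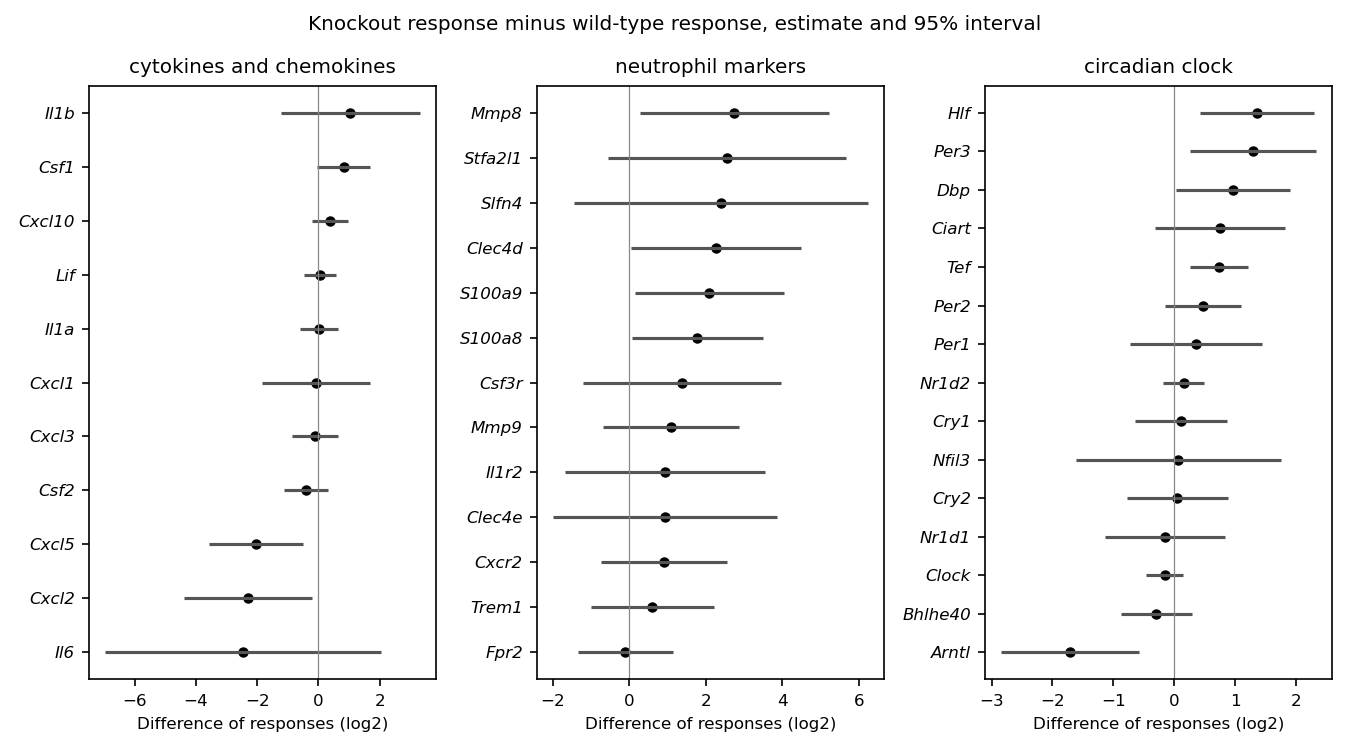
Difference of responses (knockout minus wild type, log2) of each tested cytokine, neutrophil marker and clock gene, as a point with its 95% interval. The interval of Il6 spans -6.97 to 2.04, and those of Cxcl2, Cxcl5 and Arntl lie below 0. Intervals above 0 include those of Mmp8, S100a9, Tef and Hlf.

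At a limma adjusted p under 0.05, 3 of 15 tested clock genes rose and 7 fell with ventilation in wild type, and 3 rose and 3 fell in the knockout. Of all genes tested, 6.34% rose and 9.03% fell in wild type by the same threshold, and 8.12% rose and 12.6% fell in the knockout. The difference between the genotypes in these counts was not tested. The molecular clock is a feedback loop in which the Arntl and Clock proteins bind E-box sequences and activate their own repressors of the Per and Cry families, as well as Dbp, Tef and Hlf. The latter group encode related transcription factors that bind D-box sequences. Arntl read 4.59, 5.45 and 4.58 in wild-type SB, 8.70, 8.07 and 7.61 in wild-type VILI, 4.43, 3.60 and 4.46 in knockout SB and 6.10, 5.24 and 5.77 in knockout VILI. It rose in both genotypes, by 3.26 in wild type (limma adjusted p = 7.07e-04) and 1.54 in the knockout (adjusted p = 0.016). The ventilated groups did not overlap, with a genotype gap of -2.42 that passed (adjusted p = 0.0408), and the difference of responses was -1.71 ± 0.51 (95% interval -2.84 to -0.58, adjusted p = 0.867).

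The output genes of the loop had differences above 0. Tef read 12.32, 12.09 and 11.94 in wild-type SB, 10.76, 11.20 and 11.32 in wild-type VILI, 12.34, 12.10 and 12.18 in knockout SB and 11.85, 11.91 and 12.02 in knockout VILI. The SB groups overlapped and the ventilated groups did not. Tef fell in wild type by 1.02 on the log2 scale (limma adjusted p = 0.00246), its knockout response was -0.28 (adjusted p = 0.203), and the difference was 0.74 ± 0.21 (adjusted p = 0.867). Other probe sets of Tef gave 1.61 and 0.03.

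Hlf read 10.88, 10.25 and 10.20 in wild-type SB, 8.15, 9.42 and 8.70 in wild-type VILI, 10.87, 10.62 and 10.86 in knockout SB and 10.14, 10.48 and 10.74 in knockout VILI, a difference of 1.36 ± 0.42 (limma adjusted p = 0.867). The other probe set of Hlf gave 0.48. Per3 and Dbp, named after their values were seen, had the same layout, with no overlap between the ventilated groups. Per3 read 7.67, 8.93 and 8.96 in wild-type VILI and 9.73, 9.81 and 10.31 in knockout VILI (difference 1.30 ± 0.47, adjusted p = 0.947). Dbp read 8.60, 9.29 and 9.40 in wild-type VILI and 10.30, 10.46 and 10.57 in knockout VILI (0.96 ± 0.43, adjusted p = 0.971). Both fell in both genotypes.

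Over these 15 genes, 4 had a higher and 1 a lower knockout response at an unadjusted p under 0.05, where 2.43% and 2.6% of all genes did. The median difference was 0.16. Without wild-type SB replicate 3 the counts were again 4 and 1 and the median was 0.37. The period genes Per1 and Per2 and the repressors Cry1, Cry2 and Nr1d1 all had intervals that held 0. No hour of sampling is given in the sources used here, and its part in these values was not tested.

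Promoter sequences of the clock genes, from RefSeq on GRCm38.p6, were searched for the sites of these factors because several of them changed under ventilation. The window was the 250 bases before each annotated start, and both strands were searched for the E-box CACGTG, the D-box TTATGTAA (TTACATAA on the other strand) and a shorter site bound by the Nr1d and Ror receptors, AGGTCA, which reads as TGACCT on the other strand. A window was found for 13 of the 15 genes, and several for Arntl, Clock, Per1 and Tef. The counts below are of genes with a match in any window, while the percentages are of single windows. They are therefore not like for like. The E-box was in windows of 4 (Ciart, Cry1, Per1 and Tef) and in 6.02% of all 32851 windows. AGGTCA was in 4 (Clock, Nfil3, Nr1d2 and Per1) and in 14% of all windows, and the D-box in 1, Per3, and in 0.819% of all windows. The Per3 window, at chr4:151044666-151044915 on the minus strand, holds 2 D-boxes, in capitals, which begin 205 and 158 bases before the start. A Tef window, at chr15:81802423-81802672 on the plus strand, holds an E-box, in capitals, which begins 127 bases before the start. Another Tef window, at chr15:81811164-81811413 on the same strand, holds an E-box that begins 138 bases before its start. The Per3 window and the former Tef window are written 5′ to 3′ in the direction of transcription.
Per3: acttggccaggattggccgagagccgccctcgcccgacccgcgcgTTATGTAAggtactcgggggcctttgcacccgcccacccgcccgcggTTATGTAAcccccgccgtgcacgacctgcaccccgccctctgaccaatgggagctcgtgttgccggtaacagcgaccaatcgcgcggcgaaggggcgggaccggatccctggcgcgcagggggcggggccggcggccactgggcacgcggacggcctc
Tef: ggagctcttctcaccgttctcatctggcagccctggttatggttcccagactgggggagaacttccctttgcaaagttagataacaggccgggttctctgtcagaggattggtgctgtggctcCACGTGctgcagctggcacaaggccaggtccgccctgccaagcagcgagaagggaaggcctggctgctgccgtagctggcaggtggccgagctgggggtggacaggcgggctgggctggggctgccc
These matches describe letters in a window, and binding was not measured.

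**Figure D4:**
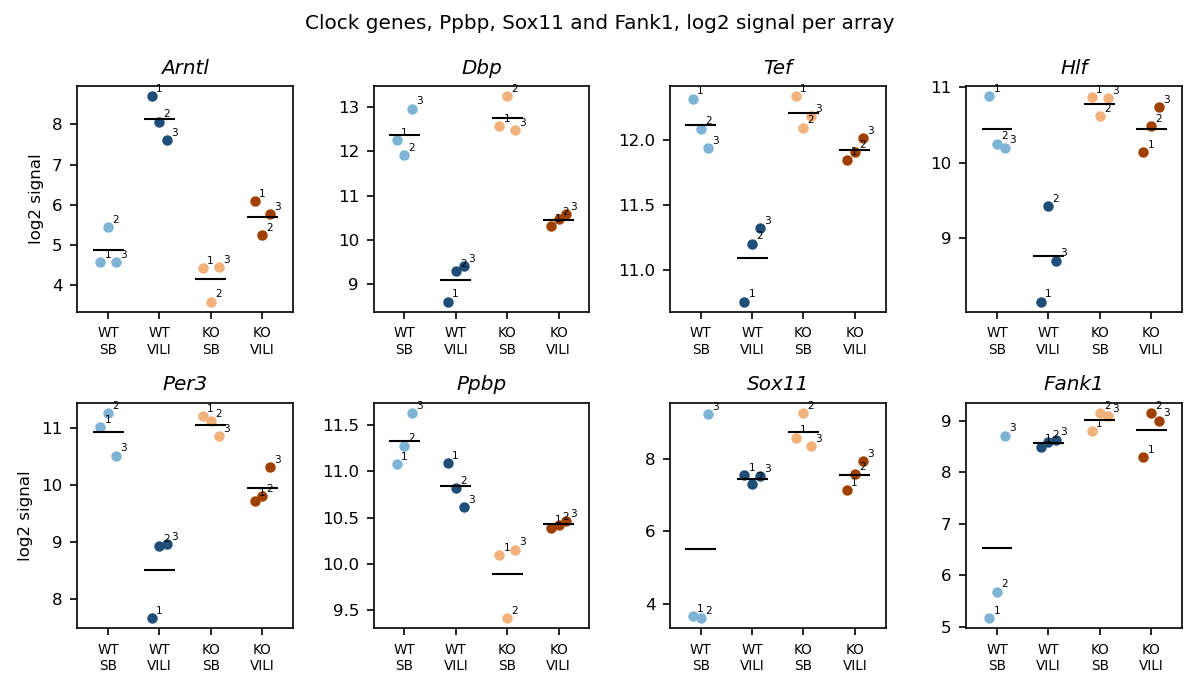
Log2 signal per array of 5 clock genes, the platelet gene Ppbp, and Sox11 and Fank1, with numbered points for arrays and a bar at each group mean. In Arntl, Dbp, Tef, Hlf and Per3 the ventilated groups do not overlap, and in Sox11 and Fank1 wild-type SB replicates 1 and 2 lie below all other arrays. Dbp and Per3 were chosen after their values were seen.

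Actomyosin genes were read with small errors for the most part. Of 25 tested genes for myosin light chain kinases, their partners and regulators of actomyosin, 1 had a higher knockout response at an unadjusted p under 0.05 and 0 a lower one. The median was 0.07, and for 23 of the 25 the interval lay within 2-fold, against 78.9% of all genes. Mylk3, a kinase of heart muscle, was the least precise of the 25, at -0.52 ± 0.88. The member with the small p was Myh9, the heavy chain of non-muscle myosin IIA. It read 13.42, 13.50 and 13.43 in wild-type SB, 13.68, 13.63 and 13.52 in wild-type VILI, 13.53, 13.33 and 13.50 in knockout SB and 13.86, 13.95 and 13.99 in knockout VILI. The difference was 0.33 ± 0.12 (limma adjusted p = 0.971). Its knockout response of 0.48 passed on its own (adjusted p = 0.00495), and its wild-type response was 0.16. The other probe sets of Myh9 gave differences of 0.54, 0.38, 0.41 and -0.12. Their wild-type responses were 0.53, 0.70, 0.18 and 1.07, so the size of the wild-type response depends on the probe set.

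Endothelial markers and junction genes had 0 of 22 members at an unadjusted p under 0.05 in either direction and a median difference of -0.06. For 15 of the 22 the interval lay within 2-fold. Cdh5, the cadherin of endothelial junctions, had 0.31 ± 0.36 (95% interval -0.49 to 1.12), or 0.0062 with knockout SB replicate 2 left out, and Pecam1, an adhesion molecule of the same junctions, -0.25 ± 0.22 (95% interval -0.75 to 0.25). Among 12 leukocyte adhesion genes 2 were lower at an unadjusted p under 0.05, both junctional adhesion molecules. Jam3 read 5.60, 5.60 and 5.84 in wild-type SB, 5.69, 5.61 and 5.46 in wild-type VILI, 6.29, 6.57 and 5.76 in knockout SB and 5.52, 4.38 and 4.10 in knockout VILI (-1.45 ± 0.45, limma adjusted p = 0.867). Jam2 fell in both genotypes, by 0.51 and 0.99 on the log2 scale, with a difference of -0.48 ± 0.17 (adjusted p = 0.906).

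On the epithelial side, 1 of 12 tight junction genes had a higher knockout response at an unadjusted p under 0.05, Cgn, which encodes the junction plaque protein cingulin (0.61 ± 0.19, limma adjusted p = 0.87), and its other probe set gave 0.08. The alveolar type 1 list had 1 of 10, which was Pdpn, and the alveolar type 2 list 0 of 10, with intervals within 2-fold for all 10. By an unadjusted p under 0.05, 2.43% of all genes tested had a higher knockout response and 2.6% a lower one. The list of mesothelial and adipose markers had 3 of 6 genes higher by that p and 0 lower, with a median of 0.49. All 3 mark mesothelium, the pleural lining, as does Wt1 at 0.20 ± 0.31, while the adipose genes Adipoq and Retn had -0.99 ± 1.40 and -1.04 ± 0.75. Msln, mesothelin, read 9.95, 9.78 and 9.28 in wild-type SB, 9.56, 10.14 and 9.51 in wild-type VILI, 8.74, 9.21 and 8.81 in knockout SB and 9.91, 10.03 and 10.25 in knockout VILI (1.08 ± 0.31, adjusted p = 0.867). By group mean, the knockout SB lungs were the low group in Msln, and likewise in Upk3b (0.90 ± 0.39) and Lrrn4 (0.79 ± 0.32). Upk3b stood at 0.55 with knockout SB replicate 1 left out and at 1.24 with knockout SB replicate 2 left out. The latter array read 10.60 for Upk3b, within the wild-type VILI range of 10.45 to 11.03. How much pleura each sample held was not tested.

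Matrix remodelling genes split. Mmp3, stromelysin, read 9.65, 9.52 and 9.81 in wild-type SB, 10.53, 10.62 and 10.44 in wild-type VILI, 10.11, 9.79 and 10.60 in knockout SB and 10.20, 10.04 and 10.30 in knockout VILI. Its wild-type rise of 0.87 passed (limma adjusted p = 0.0108), its knockout response was 0.01, and the difference was -0.86 ± 0.25 (adjusted p = 0.867). The aggrecanase Adamts4 had -1.34 ± 0.45. In its other probe set all SB arrays lay under the filter level, so no size is given. With Mmp8 they were the members of this list of 14 at an unadjusted p under 0.05. The extracellular matrix and fibroblast list had 1 of 14 lower and a median of -0.13.

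Stress programmes gave small medians. Heat shock chaperones had differences above 0 in 12 of 12 tested genes, where 48.2% of all genes did, with a median of 0.25 and 0 at an unadjusted p under 0.05. The median was 0.15 with both of the SB arrays that stood apart left out. Hspa1b, an inducible chaperone of the Hsp70 family, read 14.66, 13.97 and 13.90 in wild-type SB, 10.31, 9.89 and 10.44 in wild-type VILI, 14.31, 11.82 and 14.48 in knockout SB and 10.88, 10.55 and 11.05 in knockout VILI. It fell in both genotypes, and the difference was 1.26 ± 0.81, or 0.40 with knockout SB replicate 2 left out. The B cell list likewise had 10 of 10 above 0, with a median of 0.60 that was 0.16 without wild-type SB replicate 3, whose B cell list level of 0.79 was the highest of the 12 arrays. By the same unadjusted p, the hypoxia list had 2 of 12 lower (median -0.08), the unfolded protein response 0 of 15 (median 0.03), and the NRF2 list 1 of 16 higher (median 0.13). Ribosome biogenesis had 0 of 13 (median 0.01), and oxidative phosphorylation 1 of 18 lower (median -0.15), with all 18 intervals within 2-fold. For YAP and stretch targets 1 of 12 was lower, Axl, a receptor tyrosine kinase (-0.65 ± 0.24), and the median was 0.10.

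The remaining lists of other cell types and programmes had at most 1 member each at an unadjusted p under 0.05. Dusp4, a phosphatase that limits MAP kinase signalling, rose in wild type by 0.86 (limma adjusted p = 0.0116), had a knockout response of 0.11 and a difference of -0.75 ± 0.25 (adjusted p = 0.902). It was the 1 of 14 lower in the list of EGFR ligands, MAP kinase feedback and prostaglandin synthesis, whose median was -0.06. F5, coagulation factor V, had 0.73 ± 0.28 and was the 1 of 10 higher in the coagulation list (median -0.17). Spef2, a protein of the sperm flagellum and motile cilia, had -0.56 ± 0.22 among 13 ciliated cell markers (median 0.19), but its other probe set gave 0.55, the opposite sign. Cbr2, a carbonyl reductase of club cells, had 0.23 ± 0.10 among 10 club cell markers (median 0.15). Rrm2, a subunit of ribonucleotide reductase, had 0.76 ± 0.31 among 11 cell cycle genes (median 0.06). The T and NK cell, MHC class II, smooth muscle, cardiac and skeletal muscle and glucocorticoid lists had 0 members in either direction, with medians of 0.07, -0.03, -0.08, 0.03 and 0.08. The glucocorticoid median was 0.43 without wild-type SB replicate 3.

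**Figure D5:**
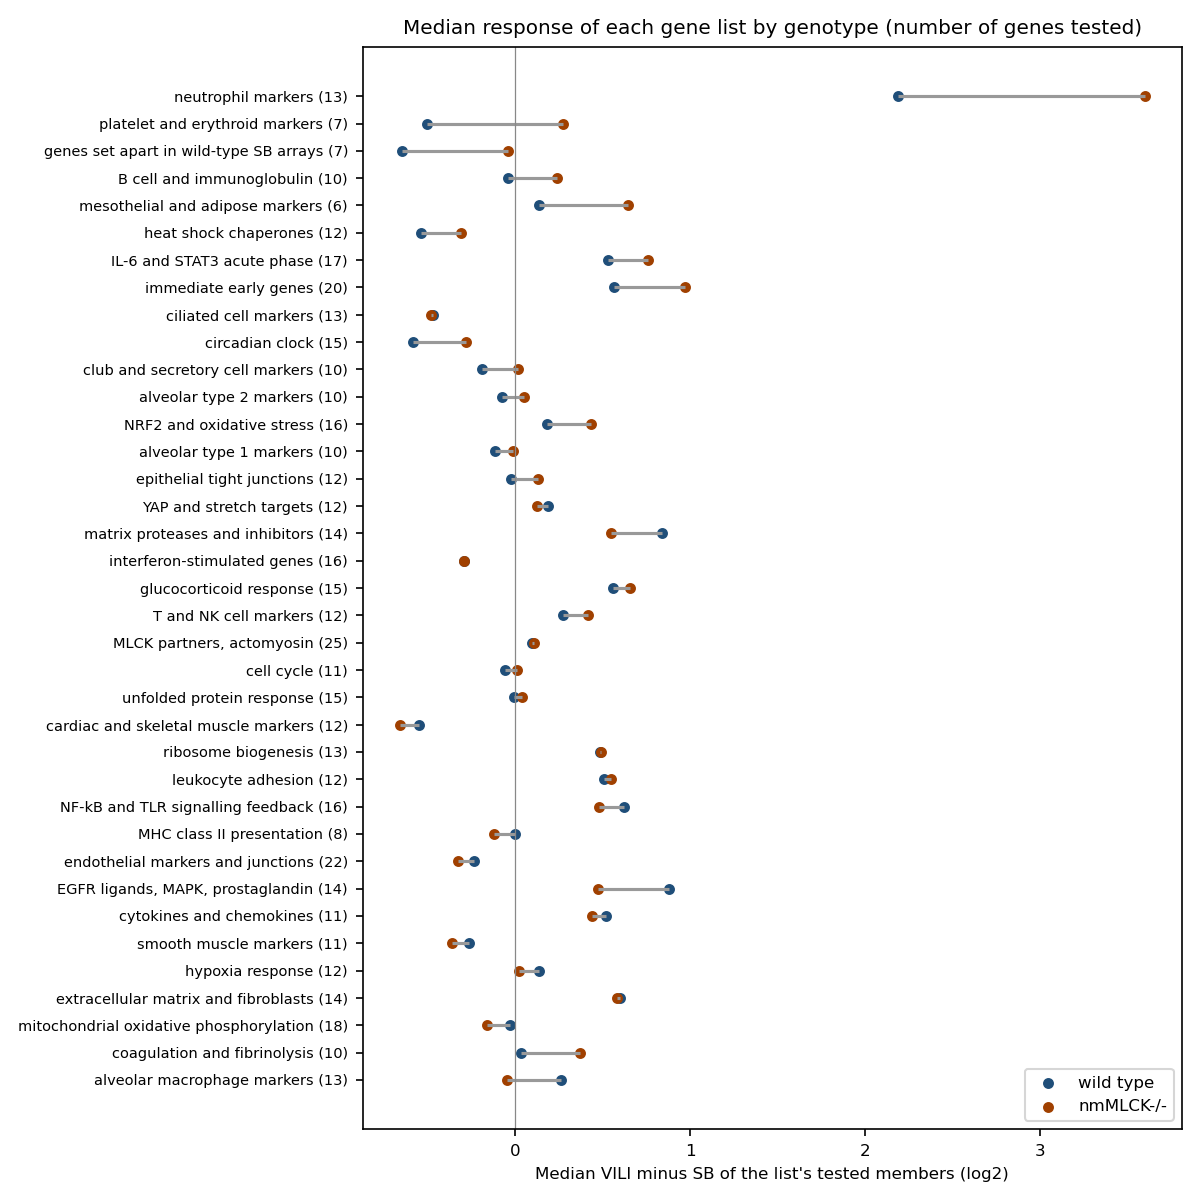
Median response to ventilation (VILI minus SB, log2) over the tested members of each gene list, in wild type and in nmMLCK-/-, ordered by the median of the members' differences, with the number of genes in brackets. Neutrophil markers have the widest gap, 2.19 against 3.60, and the lists of actomyosin, ribosome biogenesis and interferon-stimulated genes have nearly coincident points.

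A set of 6 genes passed when wild-type SB replicate 3 was left out. Sox11, a transcription factor of developing tissue, read 3.66, 3.60 and 9.25 in wild-type SB, 7.55, 7.29 and 7.53 in wild-type VILI, 8.59, 9.28 and 8.35 in knockout SB and 7.14, 7.58 and 7.95 in knockout VILI. Its difference of responses was -3.13 ± 1.68 (limma adjusted p = 0.971), and -5.01 (adjusted p = 0.00182) in the fit that left out that array. Its other probe sets past the filter ran from -5.07 to -0.85 over all arrays. Fank1 read 5.17, 5.68 and 8.71 in wild-type SB and 8.30 to 9.16 in the other groups, with -2.25 ± 1.01 over all arrays and -3.35 (adjusted p = 0.0108) without that replicate. Other probe sets of Fank1 gave -0.06 and -0.95, so the gene has no single value. Wdfy1 stood at 1.08 over all arrays and at 1.69 in that fit, where it passed, as did Dzip1l at 0.94 and 1.38, Cd59a at 0.64 and 1.22 and Rab4a at 0.66 and 0.97. The other probe set of Cd59a gave -0.03 over all arrays, that of Rab4a gave 0.43, and those of Wdfy1 gave 1.63 and 0.75. By the probe sets used, wild-type SB replicates 1 and 2 lay in each of these 6 genes outside the range of the other 3 groups, and replicate 3 lay within it. These values therefore rest on 2 arrays of the same genotype and condition. Nnt and Mboat2 did not pass without replicate 3. Under SB, Nnt read 11.78, 12.06 and 10.60 in wild type and 10.68, 11.67 and 10.75 in the knockout. Under VILI it read 10.54, 10.52 and 10.50 in wild type and 11.52, 11.58 and 12.26 in the knockout. Its difference was 1.71 (other probe set 1.62), and 2.46 (limma adjusted p = 0.0289) without both SB arrays that stood apart. Mboat2 had -1.19, or -1.80 without wild-type SB replicate 3.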

How the data were processed

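Each probe set has a log2 signal per array, which the authors deposited already normalized between arrays. MAS5 and GCRMA are named in the submitters' processing notes, without a version or the part each played, and no genome build is given in the sources used here. Such normalization makes the arrays' distributions nearly equal (array medians 4.94 to 5.04), so these values cannot show a shift in RNA content. All 12 value columns were matched to their samples, with 0 left unmatched.

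Probe sets were named from the platform annotation. Of 45037, 34945 had 1 symbol, 932 had several and 9160 had none. Probe sets with a mean log2 signal under the 40th percentile (3.06) were left out, which kept 22443 with 1 symbol. The probe set with the highest mean stood for each gene, and 5783 genes had more than 1.

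The difference of responses was fitted with limma 3.58.1 in R 4.3.3 (lmFit and eBayes on 4 group means over all 12 arrays, no covariates), two-sided, with Benjamini-Hochberg adjustment over the 12309 genes and a threshold of 0.05. The responses and genotype differences come from the same fit. The ± values are standard errors. The script was tested on simulated data. Arrays give no read depth. The number of arrays, the spread between them and signals under the filter level limit the precision that can be stated. The labels speak of animals, but do not say how the 3 samples of a group were taken, so p-values measure only the spread between these samples.

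Genes named are the 8 with the smallest p in each direction, up to 3 members of each list described with the smallest p, the tested cytokines, Mylk, and 7 genes that set wild-type SB arrays apart. Others were chosen after their values were seen. The members and the 37 lists were chosen with earlier results of these data known. Lists are described by counts and medians only, and no list was tested. Alternatives were 2 other filters, 2 other normalizations, the mean of a gene's probe sets, trended and robust eBayes, array weights, the replicate number as a block, and leaving out arrays. Array weights gene by gene and a fit of every probe set past the filter were added after seeing the data.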

Additional observations from a re-analysis of the deposited data

How the results depend on the processing

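The count of genes with a different response was 0 in the fit reported. It was again 0 with the 60th percentile filter, with array medians set equal, with quantile normalization, with the mean of a gene's probe sets, with trended and robust eBayes, and over all 27022 probe sets past the filter. With no filter it was 1 (Tbrg3, 1 higher and 0 lower). With limma array weights, whose estimation stopped before it converged, it was 171 (73 higher and 98 lower). The weights ran from 0.215 for wild-type SB replicate 3 to 9.97 for knockout VILI replicate 2, and array weights gene by gene gave 1 call (1 higher, Tbrg3). With both wild-type SB replicate 3 and replicate 2 of the knockout SB group left out it was 11 (8 higher and 3 lower). Leaving out 1 array at a time gave 0 to 6 calls (0 to 4 higher, 0 to 2 lower), all 6 without wild-type SB replicate 3. Unadjusted p under 0.05 ran from 431 genes without wild-type VILI replicate 1 to 1293 without wild-type SB replicate 3. Whether the replicate numbers pair the samples could not be settled. Of 18 pairs of same-numbered arrays, 3 had deviations correlated over 0.1, and the range was -0.628 to 0.398. Pairs with different numbers ran from -0.544 to 0.706, the latter between the SB arrays that stood apart. Such correlations cannot decide on pairing, because arrays that stand apart weigh on them. With the replicate number as a block, the count was 0, with 530 genes at an unadjusted p under 0.05.

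Over 137 named genes and their alternatives, 2898 of 2980 values kept their sign and their side of the threshold, 46 kept their sign and passed, and 36 changed sign, in 12 genes. With array weights the reversed values were 0.80 for Cxcl1, -0.32 for Il1b and -0.44 for Prf1. Gene by gene they were 0.59, -0.0602 and -0.157. Without the same pair of SB arrays they were 0.0636 for Cxcl1, -0.0435 for Il1a, -0.0241 for Il1b, -0.0103 for Lif and -0.0695 for Prf1. With array medians set equal Il1a was -0.0041, and with the mean of probe sets Rhoa was 0.33 and Wwtr1 0.0764. Leaving out 1 array at a time, Cxcl1 ran from -0.46 to 0.66, Cxcl3 from -0.41 to 0.0488, Dusp1 from -0.0315 to 0.27, Il1a from -0.18 to 0.15, Il1b from -0.0346 to 1.61, Lif from -0.0822 to 0.21, Pdk4 from -1.84 to 0.36, Per1 from -0.0291 to 0.70, Prf1 from -0.0718 to 0.99 and Sln from -0.97 to 0.10. The causes were not tested.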
